A study of Homo sapiens with 12 samples.

Results

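The genes described here are 10 genes of the integrated stress response and of serine synthesis, measured as mRNA in EndoC-βH3 cells before and after induced senescence: ATF4, ATF5, DDIT3, TRIB3, CHAC1, DDIT4, ASNS, PHGDH, PSAT1 and PSPH. They were chosen by name as a pathway, and each was found by its symbol in the gene column of the expression table, so that 10 of 35337 rows are members. All 10 passed the filter on low values, which asked for a mean normalized read count of 5 or more across the 12 samples, and stand among the 13847 genes tested.

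In the integrated stress response, kinases that sense amino acid shortage, unfolded protein in the endoplasmic reticulum, heme shortage or viral RNA phosphorylate the translation factor eIF2, which slows translation in general and favors translation of the ATF4 mRNA. The ATF4 protein then binds composite elements in target genes, among them genes for amino acid synthesis, for other transcription factors and for inhibitors that limit the response. Because ATF4 is controlled largely through its translation and the stability of its protein, the level of its mRNA is not a measure of its activity. The serine pathway runs from a glycolytic intermediate through PHGDH, PSAT1 and PSPH to serine, which feeds glycine, glutathione and the folate cycle that supplies nucleotide synthesis. In beta cells, which make large amounts of secretory protein, this stress response is known for its links to endoplasmic reticulum load.

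EndoC-βH3 is a human beta-like cell line derived from fetal pancreas, which proliferates through 2 transgenes, hTERT and the SV40 large T antigen, that a CreER recombinase carried by the cells can excise. The non-senescent group held 6 samples of untreated control cells and the senescent group 6 samples of cells given 4-hydroxytamoxifen (4-OHT) for 3 weeks to activate CreER. All samples came from the same line, which carries these transgenes in both groups before treatment, so the comparison joins the drug, the excision and the senescence that follows. Of each group, 2 samples belonged to batch A and 4 to batch B, and the labels do not say that samples within a batch were separate cultures, so p-values measure only the spread between these samples.

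Poly(A) RNA was read at its 3′ end by CEL-seq2. Batch A libraries held 8873569 to 17106776 reads and batch B libraries 4672924 to 7063264, so that 3 reads, the limit a count of 0 allows, correspond to 0.175 to 0.642 ppm of the reads. Values are read numbers divided by a size factor per sample, and no library equaled another within sampling noise. Beta cell markers were present in every library, with INS at 11021 to 34331 normalized read counts in non-senescent and 49685 to 185508 in senescent samples. Of 14 tested beta-cell markers, 5 were called higher and 1 lower, PCSK1 (log2 fold change -1.06, limma adjusted p 3.47e-06). The delta-cell hormone gene SST was also read, at a mean of 206128 in non-senescent and 128684 in senescent samples (log2 fold change -0.64). The alpha-cell hormone gene GCG was read at 4166 and 2088 (-1.3, limma adjusted p 4.21e-05). The gamma-cell hormone gene PPY had 3 reads in all libraries together. The falls of SST and GCG were larger in batch A (-1.24 and -2.36) than in batch B (-0.35 and -0.77). Their limma interaction adjusted p was 0.000747 and 6.81e-06. Not all such markers fell. Among 6 tested alpha-cell markers, TTR (1.59) and LOXL4 (2.28) were called higher and 1 lower. Among 4 tested delta-cell and gamma-cell markers, RBP4 (0.6) was called higher and 3 lower. The proliferation marker MKI67 lay at 411 to 735 in non-senescent and 63.7 to 88.4 in senescent samples, and the p53 target CDKN1A at 24.5 to 76.0 and 133 to 1501. Of the fibroblast, endothelial and immune markers, PDGFRB, VWF, CLDN5 and CD3E had no read in any library, while COL3A1 (35.7 and 15.2 in non-senescent and senescent samples), COL1A1 (12.5 and 11.1), CD68 (23.3 and 25.4), PTPRC (13.5 and 3.26) and PECAM1 (8.75 and 7.49) were read at means above 5 over all samples. PTPRC was called lower (log2 fold change -1.58, limma adjusted p 0.0072) but passed the filter only through the non-senescent group. The summed levels of these lists were 18.9 to 126, 4.77 to 24.8 and 23.0 to 51.1 in non-senescent samples and 15.3 to 57.2, 3.74 to 14.5 and 18.4 to 42.0 in senescent samples. Of other pancreatic markers, the duct gene KRT19 fell (log2 fold change -1.35) and the acinar gene CPA1 rose (2.25), while the other defining genes of both lists had a mean under 5 and were not tested. The part of these markers in the results below was not tested.

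The promoter sequences bear on which of these genes carry the element that ATF4 is known to bind. RefSeq promoter windows on GRCh38.p14 (250 bases before and 50 after each start site) were found for 9 of the 10 genes, in 16 windows. PSPH had no window and was not searched. The core letters TGATGNAA, searched on both strands as TGATGNAA and TTNCATCA, occurred in the windows of ASNS and CHAC1 and in 3.62% of all 35116 windows. Both matches are shown within 30 bases, 5′ to 3′ on the gene's strand, with the match in capitals.
ASNS, chr7:97872458-97872487, minus strand: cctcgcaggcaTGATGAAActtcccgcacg
CHAC1, chr15:40953251-40953280, plus strand: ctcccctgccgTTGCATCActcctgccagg

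In ASNS the match began 68 bases before the RefSeq start site, in what GENCODE v44 annotates as 5′ untranslated region of the longer transcripts ASNS-201 and ASNS-211. In CHAC1 the reverse complement began 209 bases before the start site and lay in the 5′ untranslated region of the longer transcript CHAC1-201. The enzymes with the largest mRNA differences below, PHGDH and PSAT1, had no TGATGNAA in their windows. Upstream bases outside annotated exons are shown for contrast, in lower case because none of the searched letters occur. For PHGDH these are only the first 53 bases of its 1 window, up to an annotated exon. That window lies inside the GENCODE gene, which begins at 119648411, so bases before the GENCODE start were not searched.
PHGDH, chr1:119711684-119711736, plus strand: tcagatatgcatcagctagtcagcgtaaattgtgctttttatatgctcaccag
PSAT1, chr9:78296875-78297124, plus strand: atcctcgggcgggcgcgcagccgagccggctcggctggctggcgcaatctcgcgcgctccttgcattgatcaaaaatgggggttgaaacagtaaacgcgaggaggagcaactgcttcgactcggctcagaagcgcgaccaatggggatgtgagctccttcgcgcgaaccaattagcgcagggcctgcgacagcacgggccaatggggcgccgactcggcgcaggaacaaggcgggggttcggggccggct

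The letters TTTCCCGC and TTTGGCGC, forms of the site of E2F cell-cycle factors, were searched on both strands as well. They occurred in 1.63% and 0.652% of all windows and in no window of these genes. The E-box letters CACGTG, present in 7.26% of all windows, were found only in ATF4 among them. A match describes the letters only, and an absent match says nothing of binding.

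Senescent EndoC-βH3 cells had much lower mRNA of the first and second enzymes of serine synthesis, PHGDH and PSAT1, and no gene of the 10 rose past the limits. PHGDH was 3.21-fold and PSAT1 4.10-fold lower. In the fit over both batches, ATF4 itself, the stress factor DDIT3 and the ATF4 inhibitor TRIB3 had log2 fold changes close to 0. DDIT3 was at 0.64 in batch A and -0.39 in batch B. Calls were made with limma, with batch as a term, where the adjusted p (Benjamini-Hochberg, over all tested genes) was below 0.1 and the fold change exceeded 1.5. By these limits 2 of 10 genes were called lower and 0 higher, where 23.4% of all tested genes were called, 11.6% higher and 11.8% lower. The share of higher genes among all calls was 49.6%, and it was 37.0% with libraries scaled to equal totals, which left the 2 calls among the 10 genes in place. At an unadjusted p under 0.05, 2 of the 10 were higher (ATF5 and PSPH) and 3 lower (PHGDH, PSAT1 and CHAC1), where 23.9% of all tested genes were higher and 22.8% lower, and edgeR and DESeq2 likewise called 0 higher. The median log2 fold change was 0.00 over the 10 genes and 0.01 over all tested genes.

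**Figure D1:**
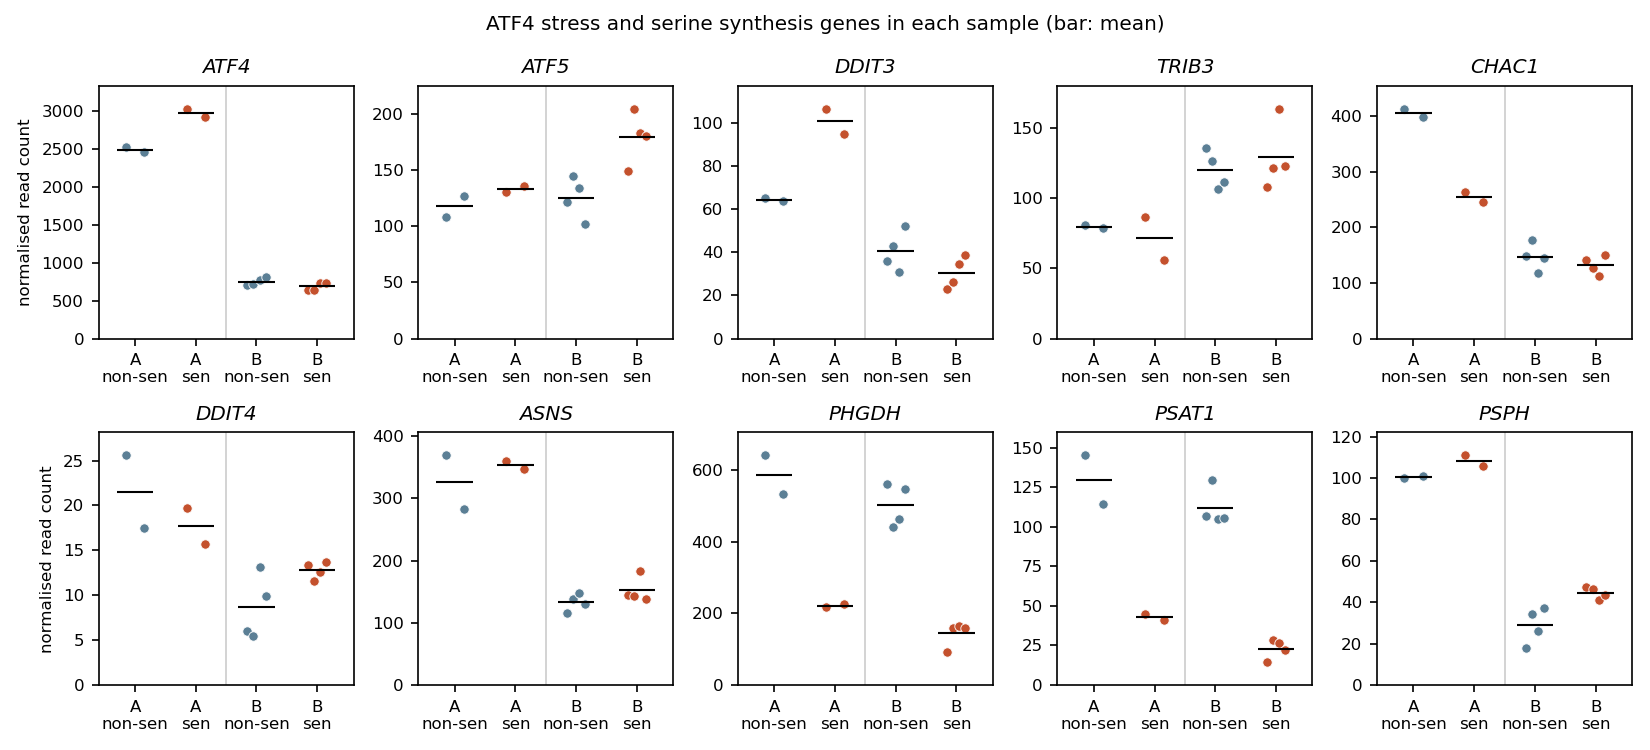
Normalized read count (vertical axis, linear, from 0) of each of the 10 genes in each sample, with one panel per gene and samples in columns by batch (A, B) and group (non-sen, sen); points are samples and bars are means. In PHGDH and PSAT1 every senescent sample lies below every non-senescent sample in both batches, while ATF4, CHAC1, ASNS and PSPH differ mainly between batches.

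PHGDH (GRCh38 chromosome 1, 119648411 to 119744218) encodes phosphoglycerate dehydrogenase, the enzyme that commits the glycolytic intermediate to serine. In batch A it was read at 642 and 534 normalized read counts in non-senescent samples and at 217 and 227 in senescent samples. In batch B the non-senescent samples were at 563, 441, 465 and 548 and the senescent samples at 92.1, 161, 164 and 161. The groups did not overlap in either batch, and the lowest non-senescent sample of the 12 was still above the highest senescent one. The means were 532 ± 72.4 in non-senescent and 170.1 ± 48.4 in senescent samples (SD, n = 6), a log2 fold change of -1.68 with an SE of 0.14 and a 95% interval of -1.98 to -1.39 (limma adjusted p 5.19e-08). Batch A gave a change of -1.40 and batch B one of -1.83, and the difference between batches did not pass the test (limma interaction adjusted p 0.515).

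PSAT1 (chromosome 9, 78297125 to 78330093), phosphoserine aminotransferase, makes phosphoserine from the product of PHGDH. Its values in batch A were 145 and 114 in non-senescent and 44.9 and 41.1 in senescent samples. Batch B had 107, 129, 105 and 106 in non-senescent and 14.5, 28.3, 26.3 and 22.4 in senescent samples. Here too every senescent sample lay below every non-senescent sample, although the lowest senescent library held only 12 reads of the gene. PSAT1 fell by 2.04 on the log2 scale (SE 0.19, 95% interval -2.43 to -1.64, limma adjusted p 1.77e-07), from 118 ± 16.2 to 29.6 ± 11.5 (SD, n = 6). The change came to -1.56 for batch A and to -2.27 for batch B, with an interaction adjusted p of 0.377 in limma.

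PSPH (chromosome 7, 56011051 to 56051604), phosphoserine phosphatase, completes the pathway by releasing serine. Unlike the other 2 enzymes it was not lower in senescent samples in either batch. Non-senescent samples were at 100.0 and 101 in batch A and at 18.1, 34.4, 26.3 and 37.3 in batch B. Senescent samples were at 111 and 106 in batch A and at 47.3, 46.2, 41.2 and 43.6 in batch B. The senescent samples thus lay above the non-senescent ones in both batches without overlap, but the gap in batch A was small. The log2 fold change was 0.47 (SE 0.19, 95% interval 0.08 to 0.86), which passed the adjusted p (limma, 0.0551) but not the fold limit. The adjusted p was 0.117 without non-senescent replicate B1, the lowest library, which held 12 reads of PSPH, and was likewise above 0.1 with DESeq2 (0.102), with equal library totals (0.14) and without the batch term (0.594). In batch B alone PSPH passed both limits with a log2 fold change of 0.65.

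Proliferation markers were lower in the same senescent samples as PHGDH and PSAT1. All 10 genes of the proliferation list were called lower, with log2 fold changes from -3.57 to -2.04. Their summed level was 6945 to 9442 in non-senescent and 1149.9 to 1687 in senescent samples. MKI67 (-3.45 in A, -2.51 in B) and TOP2A (-3.25 and -2.34) fell more in batch A, unlike PHGDH and PSAT1. MCM2 (-1.6 and -2.26) fell more in batch B. Their limma interaction adjusted p was 0.022, 0.019 and 0.043, and the other genes of the list did not pass that test. The part of proliferation in the PHGDH and PSAT1 difference was not tested, and in these bulk samples fewer cells with a transcript and less of it per cell cannot be told apart.

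None of the 3 transcription factors of the response passed both limits. ATF4 (chromosome 22, 39519695 to 39522683), its central factor, was at 2523 and 2452 in non-senescent and 3021 and 2912 in senescent samples of batch A. In batch B it was at 700.2, 717, 773 and 809 in non-senescent and 639, 641, 727 and 735 in senescent samples. The senescent samples were higher without overlap in batch A, whereas in batch B the groups overlapped with the senescent samples tending lower. Over both batches the log2 fold change was 0.00 (SE 0.08, 95% interval -0.17 to 0.16, limma adjusted p 0.987), an interval well inside the fold limit. Within batches it was 0.25 (SE 0.11) in A and -0.13 (SE 0.08) in B, opposite signs whose difference had an unadjusted limma p of 0.00979 and an adjusted p of 0.154.

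ATF5 (chromosome 19, 49928702 to 49933935), a related factor that is also translated preferentially under stress and takes part in the mitochondrial stress response, had a small difference upward. Its non-senescent values were 108 and 127 in batch A and 122, 145, 134 and 102 in batch B. Its senescent values were 131 and 136 in batch A and 149, 205, 183 and 181 in batch B. All senescent samples lay above the non-senescent samples of their batch, but the gap in batch A was small. Within batches the log2 fold change was 0.18 (SE 0.2) in A and 0.51 (SE 0.14) in B (limma interaction adjusted p 0.581). The log2 fold change of 0.40 (SE 0.12, 95% interval 0.14 to 0.66, 1.32-fold) passed the adjusted p (limma, 0.0156) but not the fold limit. The adjusted p was 0.104 without the batch term. ATF5 overlaps NUP62 by 1063 bases and an unnamed protein-coding gene model by 5234 bases, both on the opposite strand. How strand was used in counting is not given in the sources used here.

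DDIT3 (chromosome 12, 57516588 to 57521737), known as CHOP and linked to death of cells under prolonged stress, differed in sign between batches. In batch A it was at 65.0 and 63.6 in non-senescent and 106 and 94.8 in senescent samples, and in batch B at 36.1, 42.7, 30.7 and 52.2 against 23.0, 26.2, 34.3 and 38.6. The senescent samples were above the non-senescent ones in batch A and overlapped them in batch B. The pooled log2 fold change was -0.05 (SE 0.21, 95% interval -0.50 to 0.40, limma adjusted p 0.877). Within batch A it was 0.64 (SE 0.31) and within batch B -0.39 (SE 0.22), with an unadjusted limma p of 0.0171 for the difference and an adjusted p of 0.198. Batch A taken alone called DDIT3 higher. Its 19 to 237 reads per library make the batch B values less precise, and it overlaps MBD6 by 1028 and MARS1 by 982 bases on the opposite strand and an unnamed protein-coding gene model by 2769 bases on its own strand.

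TRIB3 (chromosome 20, 362835 to 397559), a pseudokinase that is induced by ATF4 and restrains it, showed no difference beyond its spread. It was at 80.6 and 78.7 in non-senescent and 86.6 and 56.2 in senescent samples of batch A. Batch B had 136, 127, 107 and 112 in non-senescent and 108, 122, 164 and 123 in senescent samples. The groups overlapped in both batches, and the log2 fold change was 0.00 (SE 0.14, 95% interval -0.30 to 0.30, limma adjusted p 0.997).

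Of the stress effectors, CHAC1 (chromosome 15, 40952962 to 40956512), an enzyme that breaks down glutathione, was lower in senescent samples of batch A only. It was at 412 and 398 in non-senescent and 264 and 245 in senescent samples of batch A. In batch B it was at 148, 176, 117 and 144 against 142, 127, 112 and 151, values that overlapped. The log2 fold change was -0.67 (SE 0.19) in batch A and -0.13 (SE 0.14) in batch B, a difference with an unadjusted limma p of 0.0358 and an adjusted p of 0.28. Pooled, it was -0.31 (SE 0.13, 95% interval -0.58 to -0.04), past the adjusted p (limma, 0.0648) but not the fold limit. Leaving out non-senescent A1, A2 or B2 or senescent A1, A2 or B3 took the adjusted p above 0.1, to at most 0.161. The limma adjusted p was 0.558 in batch B alone and 0.669 without the batch term.

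DDIT4 (chromosome 10, 72273919 to 72276036), also called REDD1, inhibits the growth kinase complex mTORC1. It was the lowest of the 10 in read number, with 4 to 46 reads per library. Non-senescent samples were at 25.6 and 17.5 in batch A and 6.02, 5.51, 13.2 and 9.94 in batch B, and senescent samples at 19.8 and 15.7 and at 13.3, 11.5, 12.6 and 13.7. The groups overlapped in both batches. The log2 fold change of 0.31 had an SE of 0.29 and a 95% interval of -0.30 to 0.91 (limma adjusted p 0.428), so that a change of 1.5-fold upward was not excluded at this depth.

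ASNS (chromosome 7, 97851677 to 97872542) encodes asparagine synthetase, a much used reporter of ATF4 activity, and carries the element shown above. It was at 369 and 284 in non-senescent and 359.6 and 348 in senescent samples of batch A. In batch B it was at 116, 138, 148 and 131 against 145, 143, 183 and 138. The groups overlapped in both batches, with a log2 fold change of 0.17 (SE 0.11, 95% interval -0.06 to 0.40, limma adjusted p 0.227). An unnamed long noncoding RNA gene model overlaps ASNS by 20855 bases on its own strand. ASNS and CHAC1, the only searched members with the element in a window, had log2 fold changes of 0.17 and -0.31, and neither passed both limits. PSPH was not searched, and bases outside the windows were not searched for any member.

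**Figure D2:**
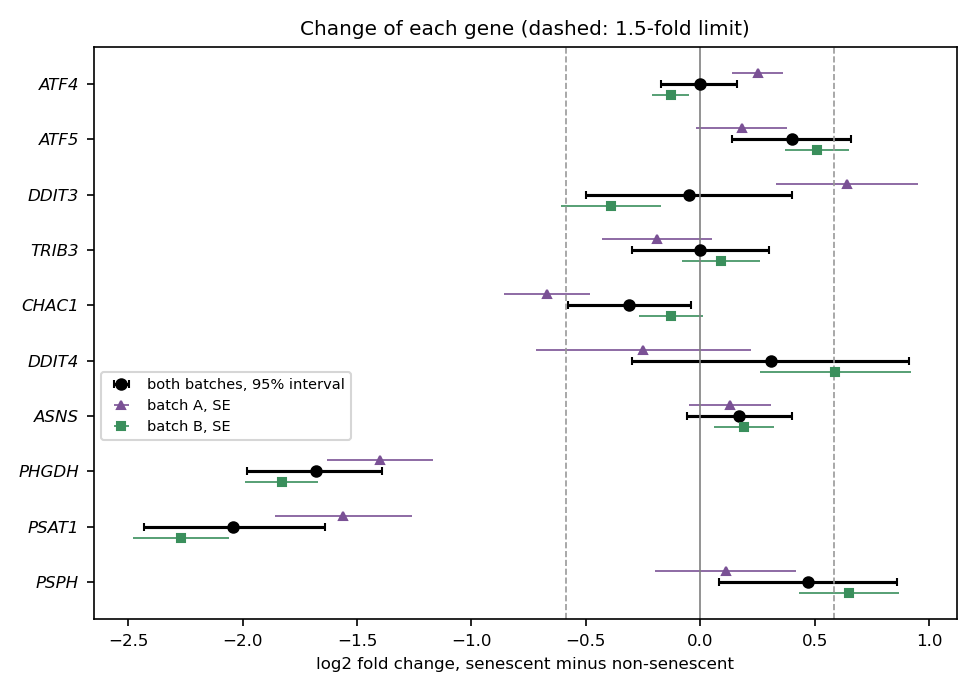
Log2 fold change, senescent minus non-senescent (horizontal axis), of each gene. Black circles with bars are the fit over both batches with its 95% interval, triangles are batch A and squares batch B with SE bars, and dashed lines mark the 1.5-fold limit. PHGDH and PSAT1 lie beyond the lower limit in both batches, and DDIT3 lies on opposite sides of 0, at 0.64 in A and -0.39 in B.

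Considered by their intervals, 5 of the 10 genes (ATF4, DDIT3, TRIB3, CHAC1 and ASNS) had a 95% interval over both batches that lay wholly within the 1.5-fold limit, as did 37.3% of all tested genes. Of these, DDIT3 (0.64) and CHAC1 (-0.67) passed both limits in batch A alone. The intervals of ATF5, PSPH and DDIT4 reached beyond its upper side. In 4 of 10 genes senescent and non-senescent samples were fully separated, with the same sign, within A and within B, lower for PHGDH and PSAT1 and higher for ATF5 and PSPH, compared with 23.8% of all tested genes. Besides the called genes, 3 of the 10 passed the adjusted p but not the fold limit (ATF5, CHAC1 and PSPH), as did 22.1% of all tested genes.

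Most of the 10 genes also differed between the batches. In a test of batch A against batch B within the non-senescent samples, chosen after the values were seen, 6 of 10 genes were higher in A past an adjusted p of 0.1 and a fold of 1.5, and 0 were higher in B. Of all tested genes 49.8% passed, 25.1% higher in A and 24.7% higher in B. PSPH was 3.5-fold, ATF4 3.32-fold, CHAC1 2.79-fold, ASNS 2.43-fold, DDIT4 2.42-fold and DDIT3 1.61-fold higher in batch A. For all 6 genes the batch A samples lay above the batch B samples in both groups, without overlap. TRIB3 went the other way, 0.58 higher on the log2 scale in B (limma adjusted p 0.0272), just under the fold limit. The remaining members, ATF5, PHGDH and PSAT1, did not pass that test (limma adjusted p 0.695, 0.36 and 0.511). Batch A also had a larger share of mitochondrial reads (19.9% to 24.8%) than batch B (15.6% to 17.8%) and deeper libraries, and their part in these differences was not tested.

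The senescence response itself differed between batches at an adjusted interaction p under 0.1 in 4.21% of all tested genes and in 0 of the 10. At an unadjusted p under 0.05 it differed in 3 of them, ATF4, DDIT3 and CHAC1, and in 15.2% of all tested genes. With 2 samples per group in batch A these differences are not well resolved, with an SE of 0.39 for DDIT3.

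**Figure D3:**
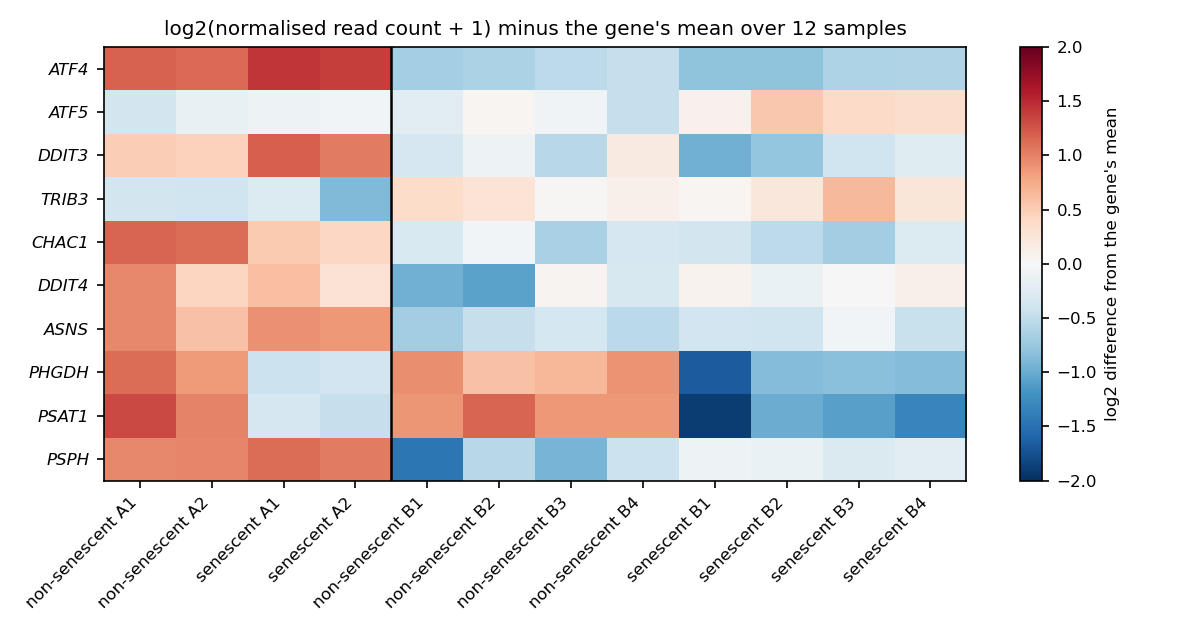
Heat map of the 10 genes (rows) in the 12 samples (columns, batch A left and batch B right of the line); color is log2(normalized read count + 1) minus the gene's mean over all samples, red above and blue below. PHGDH and PSAT1 change color between groups within each batch, whereas ATF4, CHAC1, ASNS and PSPH change color at the line between batches.

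Upstream of ATF4, the genes of eIF2 and its kinases changed in both directions. Of 15 genes tested, 1 was called higher and 3 lower, with a median log2 fold change of 0.02. The riser was PPP1R15A (GADD34), the stress-induced subunit that directs eIF2 dephosphorylation, at 0.65 (SE 0.14, limma adjusted p 0.00149), from 85.8 ± 24.4 to 141 ± 62.9. Those that fell were EIF2AK2 (PKR, -0.67), the eIF2 alpha subunit EIF2S1 (-0.67) and the gamma subunit EIF2S3 (-0.59). PPP1R15A was not called with libraries scaled to the same total, without the batch term, in batch B alone or without non-senescent A2.

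Among dimer partners of ATF4, 3 of 9 tested genes were called higher and 0 lower, with a median of 0.20. CEBPA rose by a log2 fold change of 2.31 from a low level (2.55 ± 2.07 to 14.9 ± 4.6, SD, n = 6), NFE2L1 by 0.70 and FOS by 0.62. CEBPA passed the filter only through the senescent group, and 2 genes of the list were higher with a filter at a mean of 20. The FOS difference was seen in batch A, at 2.04, with -0.09 in batch B (limma interaction adjusted p 8.99e-07). CEBPB and CEBPG, the partners best known for ATF4 binding, had log2 fold changes of 0.19 and -0.16 and did not pass the test. Of 10 tested paralogs of ATF4, TRIB3, DDIT4 and CHAC1, 1 rose, ATF6 (1.09), and 1 fell, CHAC2 (-0.94), a glutathione-degrading relative of CHAC1.

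Downstream of serine, several enzymes of the folate cycle and of thymidylate synthesis were lower. Of 16 tested genes of serine, glycine and folate metabolism, 0 were called higher and 5 lower, with a median of -0.23, compared with 0.01 for all tested genes. TYMS, which makes thymidylate, fell by 2.41 on the log2 scale (SE 0.10, limma adjusted p 5.37e-12), from 820.2 ± 129 to 153 ± 14.7. SHMT1, which interconverts serine and glycine in the cytosol, had a log2 fold change of -2.17, MTHFD1 of -1.45 and the mitochondrial SHMT2 of -1.12, all called lower. The mitochondrial enzymes MTHFD2 and MTHFD1L had log2 fold changes of -0.30 (SE 0.18) and 0.04 (SE 0.22) and did not pass the test. The enzymes named as lower were so in both batches, with TYMS at -2.31 in A and -2.46 in B and SHMT2 at -0.95 and -1.21. TYMS and proliferation markers fell in the same samples, and the part of proliferation in this list was not tested.

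**Figure D4:**
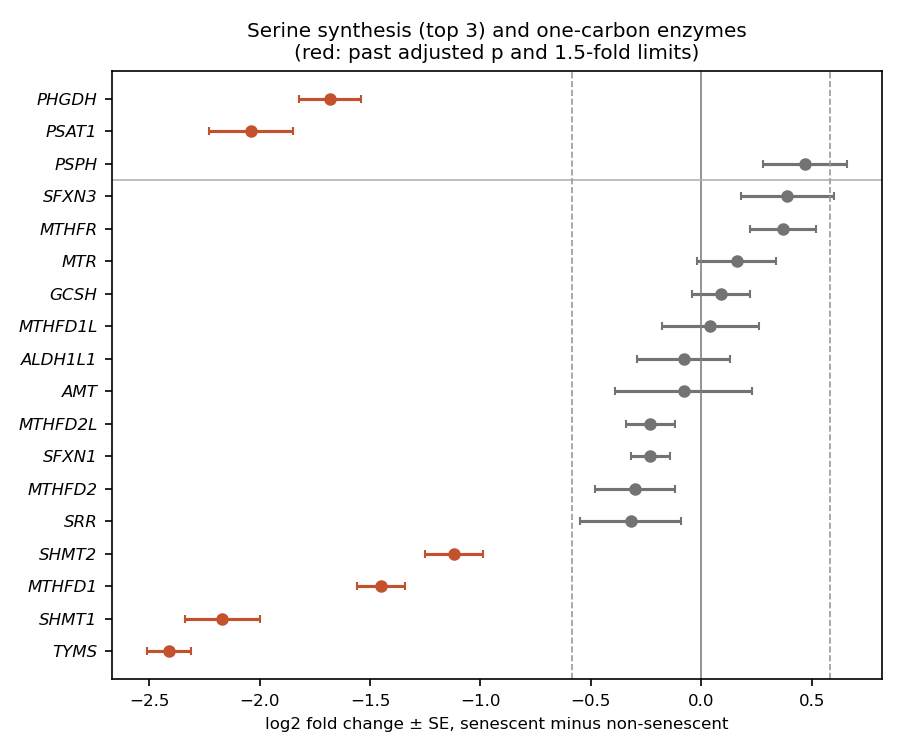
Log2 fold change, senescent minus non-senescent, with SE bars (horizontal axis) of the 3 serine synthesis enzymes (top) and 15 of the 16 tested serine, glycine and folate enzymes; red genes passed the adjusted p and the 1.5-fold limit (dashed). TYMS at -2.41 lies lowest, PHGDH and PSAT1 lie at -1.68 and -2.04, and MTHFD2 and MTHFD1L lie near 0.

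Other amino acid genes attributed to ATF4 did not share a direction. Of 13 tested enzymes, PYCR1, which completes proline synthesis, rose (1.40, from 59.0 ± 5.99 to 158 ± 19.3), and CBS (-2.14) and GOT1 (-0.81) fell, with a median of 0.02. Among 9 tested transporters, the glycine transporter SLC6A9 rose (1.72), while SLC1A5 (-1.51), the cystine transporter SLC7A11 (-0.94) and the glutamine transporter SLC38A2 (-0.68) fell, with a median of -0.31. SLC1A5 was low, at 7.81 and 2.38, and passed the filter only through the non-senescent group, so that 2 transporters fell with a filter at a mean of 20. SLC38A2 fell in batch B (-0.96) and was at -0.11 in batch A (limma interaction adjusted p 0.084). Aminoacyl-tRNA synthetases, which charge tRNAs, had 3 of 20 called higher (AARS1 0.71, EPRS1 0.70 and WARS1 0.69) and 0 lower, and 15 of 20 had a positive log2 fold change, as did 51.1% of all tested genes, with a median of 0.15. The synthetase genes are listed in the table under their older symbols. For 8 tested glutathione genes, 0 rose and 2 fell, the CHAC2 and SLC7A11 already named.

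Further stress targets of ATF4 were as divided. Of 14 tested, GDF15, a secreted stress factor, rose by 2.13 and SESN2 by 0.61, whereas EIF4EBP1, a translation repressor, fell by 0.95 and the mitochondrial protease LONP1 by 0.64, and the median was 0.09. The list had 1 rise with equal library totals, without the batch term, without non-senescent A1 or without senescent A1, and 0 calls in batch A alone. GDF15 rose in batch B (3.02) and much less in batch A (0.33; limma interaction adjusted p 0.0136). GDF15 and SESN2 are also p53 targets, and for these 2 genes the parts of ATF4 and p53 cannot be told apart here. In the p53 list 9 of 17 tested genes were called higher and 0 lower, led by CDKN1A at 3.92, with a median of 0.61. CDKN1A was at 2.18 in batch A and 4.78 in batch B (limma interaction adjusted p 0.00191). ZMAT3 (0.17 and 0.96) and RRM2B (0.05 and 1.46) rose mainly in B, and BTG2 (1.84 and 1.07) more in A. MDM2 was not called and had opposite signs, -0.43 in A and 0.78 in B. In the hypoxia and glucocorticoid list, whose factors also act on DDIT4, 5 of 10 tested genes rose (NDRG1 2.83, ADM 1.32, ANKRD37 1.1, TSC22D3 0.98 and PER1 0.60) and 0 fell, while DDIT4 itself was not called. The count of rises in that list was 3 with libraries scaled to the same total, 2 without the batch term and 1 in batch B alone.

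In the other arms of the unfolded protein response, chaperone genes were among those that rose. Of 20 tested genes of the ATF6 and XBP1 arms, regulators and targets together, 6 were called higher and 0 lower, 18 had a positive log2 fold change, and the median was 0.36. The regulator ATF6 rose by 1.09 (SE 0.09, limma adjusted p 3.33e-08), the chaperone HSPA5 by 0.97, DNAJB9 by 0.76, HSP90B1 by 0.75, SEL1L by 0.65 and HYOU1 by 0.61. HSPA5 went from 1612 ± 221 to 3194 ± 703 (SD, n = 6), a rise seen in batch A (0.77) and in batch B (1.07). ATF6 was at 1.04 in batch A and 1.11 in batch B. Smaller rises in batch A than in batch B were seen for HSP90B1 (0.49 and 0.88) and DNAJB9 (0.5 and 0.88). The same held for SEL1L (0.48 and 0.73) and HYOU1 (0.29 and 0.76). XBP1 itself was not called and had opposite signs, -0.46 in A and 0.47 in B (limma interaction adjusted p 0.00216). In the mitochondrial stress list of 11 tested genes, GDF15 and the protease OMA1 (0.60) rose and HSPE1 (-0.81) and LONP1 (-0.64) fell, with a median of -0.37. In several alternatives, batch A alone and batch B alone among them, 1 gene of that list rose in place of 2. These counts are descriptions of the lists beside the shares of all genes given above, and no list was tested against another.

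**Figure D5:**
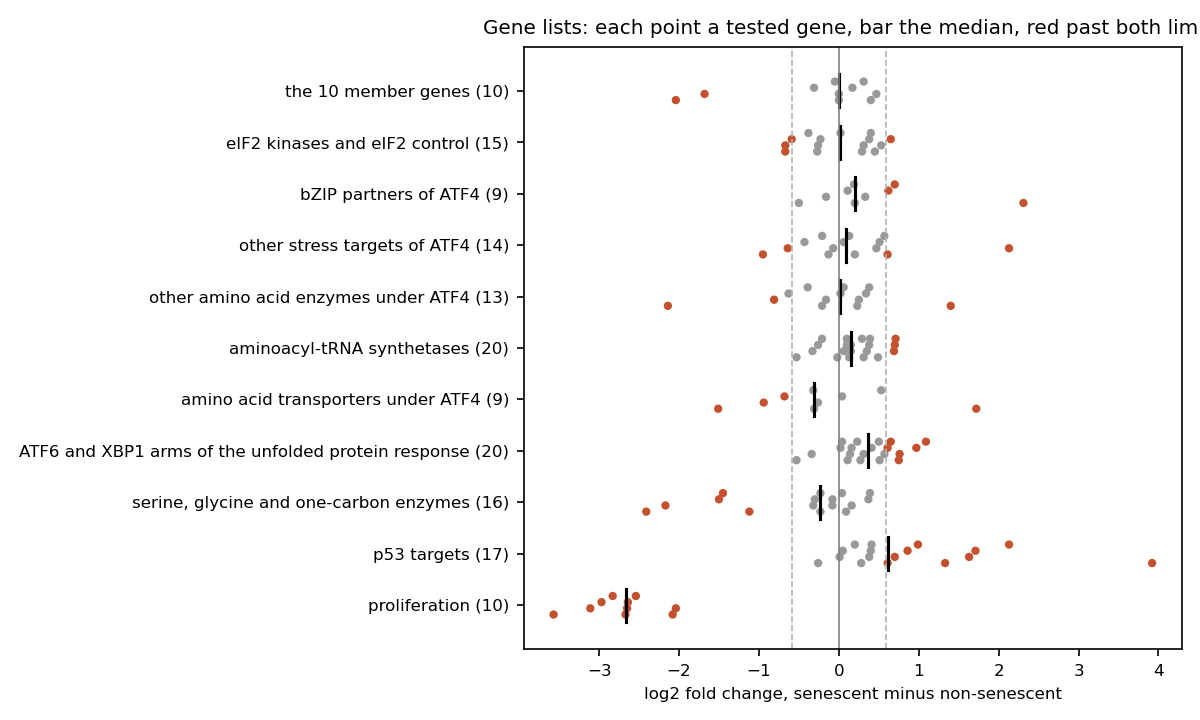
Log2 fold change, senescent minus non-senescent (horizontal axis), of each tested gene (points) in the 10 genes and in the related gene lists (rows, number tested in parentheses); black bars are medians, dashed lines the 1.5-fold limit, and red points passed both limits. The median of the ATF6 and XBP1 list lies at 0.36 and that of the 10 genes at 0.00.

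The gene whose 12 values, each relative to the non-senescent mean of its batch, lay nearest to those of a member was found among 11673 genes with a mean of at least 20, by the root mean square of the log2 differences. TUBB, a tubulin gene, lay nearest to PHGDH at 0.19 and itself had a log2 fold change of -1.66. CAMK2N2, which encodes an inhibitor of a calcium-dependent kinase, lay nearest to PSAT1 at 0.17, with a log2 fold change of -2.02. B4GALT3 lay nearest to ATF4 (0.07), FBXO11 to ATF5 (0.10), CUEDC2 to DDIT3 (0.15) and NLRP12 to TRIB3 (0.12). HEATR5A was nearest to DDIT4 (0.17), TRIM23 to ASNS (0.11) and AIFM1 to PSPH (0.14). No member of the 10 could be its own neighbor or that of another member by this rule, and the distances carry no test.

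Processed pseudogenes could share reads with some of these genes. In all 12 libraries together, rows of ATF4 pseudogenes held 23 reads against 23703 of ATF4, those of ASNS 13 against 3308, those of PSAT1 4 against 975, and PSPHP1 0 against 968 of PSPH. How the authors' counting divided reads between a gene and its pseudogenes is not given in the sources used here.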

How the data were processed

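Poly(A) RNA of 12 EndoC-βH3 samples was profiled by CEL-seq2. According to the methods and processing notes, adapters and poly(A) tails were removed with Cutadapt, genes were quantified with Salmon 0.13.1 (GRCh38), and groups were compared by the authors in DESeq2 with batch corrected. Which transcript annotation was used, and how molecular identifiers were treated, is not given in the sources used here. The deposited values are a signal: each gene's read number over the size factor of its sample, here called a normalized read count. The authors' own fold change, error, statistic and p-value columns were not used.

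Groups, batches and replicate names were taken from the sample titles. All of the 196021 values above 0 (100%) were whole multiples of the smallest value of their column within a relative tolerance of 1e-06, so whole reads could be recovered. Because the values are not raw counts, log2(normalized read count + 1) was fitted in limma 3.58.1 (R 4.3.3), with the intensity trend and terms for batch and group, over the 13847 genes whose mean was at least 5. The added pseudocount understates changes of low genes. Interaction and within-batch values came from a model of the 4 batch and group means. edgeR 4.0.16 and DESeq2 1.42.0 on recovered reads, other pseudocounts, filters, scalings, batch and block terms and single libraries left out served as alternatives. Replicate numbers did not pair samples. The procedure was tested on simulated data. Floors of 3 reads cover counting error only.

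Members and gene lists were chosen with earlier results of these data known. Genes named were the members, the called genes of each list with the largest rise and fall or where 5 or fewer were counted, and the nearest gene of each member; some of these are not reported here. Others, such as CEBPB, CEBPG, MTHFD2, MTHFD1L, MBD6, MARS1 and the genes at 0 or used to check the cells, were named after their values were seen. Positions came from GENCODE v44 and promoters from RefSeq (GRCh38.p14). Bases in annotated untranslated regions are shown only as 30-base sites.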

Additional observations from a re-analysis of the deposited data

Results flagged for a closer look

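Of 40 groups of 4 samples or more checked for a sample far from the rest, 2 stood out, and chance would give about 1 in 20. PHGDH was 92.1 normalized read counts in senescent B1, with the next senescent sample of batch B at 161. Without that library the log2 fold change of PHGDH was -1.54, against -1.68 with it. PSAT1 was 129 in non-senescent B2, with the next sample at 107, and its log2 fold change without that library was -1.97, against -2.04 with it.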

How the results depend on the processing

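PHGDH and PSAT1 were called lower under all 13 alternatives and with each of the 12 libraries left out, with log2 fold changes of -1.83 to -1.40 and -2.27 to -1.56 over the alternatives and -1.75 to -1.54 and -2.14 to -1.89 with libraries left out. Among the 10 genes, 1 was called higher in batch A alone (DDIT3, 0.64, reversed from -0.05) and 1 in batch B alone (PSPH, 0.65), and CHAC1 was called lower in batch A alone (-0.67); fewer samples entered these fits. Over the alternatives the log2 fold change of ATF4 lay between -0.13 (batch B alone) and 0.25 (batch A alone). That of TRIB3 lay between -0.19 (batch A alone) and 0.09 (batch B alone). The sign changed in 3 alternatives for DDIT3 and in 1 of 12 for DDIT4. Without the batch term 1037 genes in all were higher, against 1605. With libraries left out, 1545 to 1639 genes were higher and 1569 to 1642 lower, always with 0 and 2 of the 10. The number of genes with an interaction ranged from 169 to 743 with libraries left out, against 583, and was 261 without non-senescent A1, 175 without non-senescent A2, 183 without senescent A1 and 169 without senescent A2, where 1 sample stands for its group in batch A. With equal library totals, 1226 genes were higher and 2090 lower, 37.0% higher among calls against 49.6%, and moved the median of all genes from 0.01 to -0.09. Correlations of same-numbered samples were -0.05 to 0.02, so the numbers do not pair samples, and the replicate block gave 1591 higher and 1620 lower genes with 0 and 2 of the 10. Of the counts given for the gene lists, 46 values under an alternative lay over 1.5 times from the main one, and so did 28 with a library left out. Among the former were 3 of 20 genes of the ATF6 and XBP1 arms and 5 of 17 p53 targets higher in batch A alone. DDIT4 fell below a filter at a mean of 20 and has no value there. Low read numbers limit DDIT4, DDIT3, PSAT1 and PSPH in batch B.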
